A study of Mus musculus with 24 samples.

Results

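The lysosomal proton pump and the proteases it serves were followed here as 37 genes of the mouse dentate gyrus. They are the subunits and accessory proteins of the vacuolar H+-ATPase (V-ATPase), the cathepsins, and the lysosomal membrane glycoproteins Lamp1 and Lamp2. A gene was a member if its symbol began with Atp6v or Atp6ap, or was Cts plus 1 letter, or was Lamp1 or Lamp2, and if its reads summed to at least 100 over all 24 libraries. Of 26667 genes in the count table, 46 symbols matched and 37 reached that total. Of these, by symbol, 11 belong to the V1 sector, 9 to the V0 sector, 3 are accessory proteins, 12 are cathepsins and 2 are Lamp1 and Lamp2. The 9 include Atp6v0c-ps2, a processed pseudogene of Atp6v0c, which also enters the counts of V-ATPase members below.

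RNA sequencing was done on the dentate gyrus of 5 groups of mice, each library from a separate animal. The groups were wild-type C57BL6/J mice (WT, 5 libraries), APP/PS1 mice with neither wheel nor drug (APP/PS1 control, 5), APP/PS1 mice on BCI-838 (4), APP/PS1 mice with free access to a running wheel (exercise, 5) and APP/PS1 mice with drug and wheel together (both, 5). APP/PS1 mice carry transgenes for the amyloid precursor protein and presenilin 1 and form amyloid plaques. BCI-838 is taken by mouth and converted in the body to a blocker of mGluR2 and mGluR3, glutamate receptors of the metabotropic class. It was given at 5 mg/kg daily for 1 month. The wheel was also available for 1 month, and mice without drug received vehicle according to the series design. The sources used here do not give the promoter of the transgenes or the age and sex of the mice.

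The V-ATPase is a rotary pump that uses ATP to move protons into lysosomes, endosomes and synaptic vesicles. Its cytosolic V1 sector splits ATP, and its membrane-bound V0 sector carries the protons. The acid lumen lets cathepsins mature and work; these are proteases of the aspartic (cathepsin D), serine (cathepsin A) and cysteine class (most others). In neurons the same pump also charges synaptic vesicles for transmitter uptake, so V-ATPase transcripts in brain are not a lysosomal measure alone. Lamp1 and Lamp2 are heavily glycosylated proteins that line the lysosomal membrane. Many of these genes are known targets of TFEB and TFE3, transcription factors that bind E-box motifs of the CACGTG type near the start of lysosomal genes.

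That motif can be read in several members' promoters. The 5 stretches shown hold its longer form, or several copies of it, wholly before the gene's start. They come from the RefSeq promoter table for GRCm38.p6, which gives 250 bases before to 50 bases after each gene's start and holds 27 of the 37 members. Letters are 5′ to 3′ on the gene's own strand. Capitals mark TCACGTGA in the first 3 stretches (Ctsa at chr2:164833740-164833772, plus strand, Ctsd at chr7:142387899-142387946, minus strand, and Atp6v1a at chr16:44139364-44139411, minus strand). Capitals mark CACGTG in the others (Atp6v0b at chr4:117887332-117887375, minus strand, and Lamp1 at chr8:13159090-13159160, plus strand).
Ctsa: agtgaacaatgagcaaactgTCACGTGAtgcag
Ctsd: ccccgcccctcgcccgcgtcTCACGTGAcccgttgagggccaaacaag
Atp6v1a: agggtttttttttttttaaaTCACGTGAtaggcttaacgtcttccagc
Atp6v0b: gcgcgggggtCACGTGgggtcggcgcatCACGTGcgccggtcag
Lamp1: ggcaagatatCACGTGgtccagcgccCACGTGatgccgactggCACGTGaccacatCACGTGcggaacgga

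CACGTG was present in the promoters of 9 of the 27 members in the table, or 33.3%, and of 8.09% of all 27025 genes in it. Besides the 5 above, the members were Atp6v0d1, Atp6v0e, Ctsl and Ctsf. The longer TCACGTGA was present in 5 of 27, or 18.5% (Ctsa, Ctsd, Atp6v1a, Atp6v0d1 and Atp6v0e), and in 1.12% of all genes. A still longer form, with a G before TCACGTGA and a C after it, was present in 0 of 27 members and in 0.370% of all genes. At so low a share in all genes, its absence from 27 members says little. All of these motifs are palindromes, so both strands were searched at once, and each longer form contains the shorter. The Lamp1 stretch holds 4 copies of CACGTG and the Atp6v0b stretch 2. The promoters of Ctsa and Ctsd each hold a further copy outside the stretch shown. A match describes letters only and is not a measured binding site.

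Depth and tissue makeup varied among the libraries. Total counts ran from 48656360 to 64632882 per library. Prox1, the transcription factor that defines granule neurons, had group means between 96.0 and 104 CPM (read counts scaled by library size in edgeR), but the summed level of 9 granule neuron markers ran from 253 to 1498 CPM over the libraries. It was lowest in WT replicate 3 (253 CPM) and APP/PS1 control replicate 3 (356 CPM). The 12 choroid plexus markers reached 1805 CPM among APP/PS1 controls and 387 CPM in the group with both treatments, and at most 59.8 CPM elsewhere. Ttr was over 100 CPM in 4 libraries, namely APP/PS1 control replicates 2, 4 and 5 and replicate 5 of the group with both. App was at 1452 to 2073 CPM in WT and 2467 to 4054 CPM in APP/PS1 libraries with no overlap. Counts of members that passed were also taken without the 4 libraries over 100 Ttr CPM, and were 0 in all 7 comparisons in edgeR, where at most 0.0107% of all genes passed. At an unadjusted p under 0.05 there were then 0 to 6 members, and the share of all genes below it in these fits is not given. These are bulk samples, so fewer cells of a type and less RNA per cell cannot be told apart.

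In WT mice the V-ATPase led the list. To compare genes, levels were divided by exon length and are given as CPM per kilobase with the SD over 5 libraries. The proton-carrying c subunit Atp6v0c was highest, at 257 ± 22.9 CPM per kilobase (SD, n = 5). The stator subunits Atp6v1e1 and Atp6v1g2 followed with 198 ± 28.7 and 185 ± 34.1, and the V0 subunits Atp6v0b and Atp6v0e2 with 178 ± 19.7 and 165 ± 15.7 CPM per kilobase. The catalytic A subunit Atp6v1a stood at 148 ± 23.2 and its partner Atp6v1b2 at 141 ± 11.5 CPM per kilobase. The A and B subunits, which alternate in the ATP-splitting ring, thus lay within each other's spread.

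The most abundant protease was the aspartic cathepsin D. Ctsd stood at 130 ± 10.1 CPM per kilobase (SD, n = 5), next to the accessory protein Atp6ap1 and to Lamp1, both at 129 (SD 9.24 and 8.87). Cathepsin B, a cysteine protease, followed with 107 ± 11.8 CPM per kilobase for Ctsb. The microglial cysteine protease Ctss was at 35.3 ± 4.96, Ctsf at 29.6 ± 1.30, Ctsa at 23.3 ± 1.10, Ctsz at 23.1 ± 2.68 and Ctsl at 11.1 ± 0.849 CPM per kilobase. Lamp1 was well above Lamp2, which was at 14.4 ± 1.14 CPM per kilobase. Every gene from Ctsk downward in this order was at most at 2.07 CPM per kilobase in WT libraries except Atp6ap1l, which ran from 0.0976 to 3.93. Most steps of the order are small against the spread: of 36 pairs of neighbours, 6 had WT ranges that did not overlap.

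**Figure D1:**
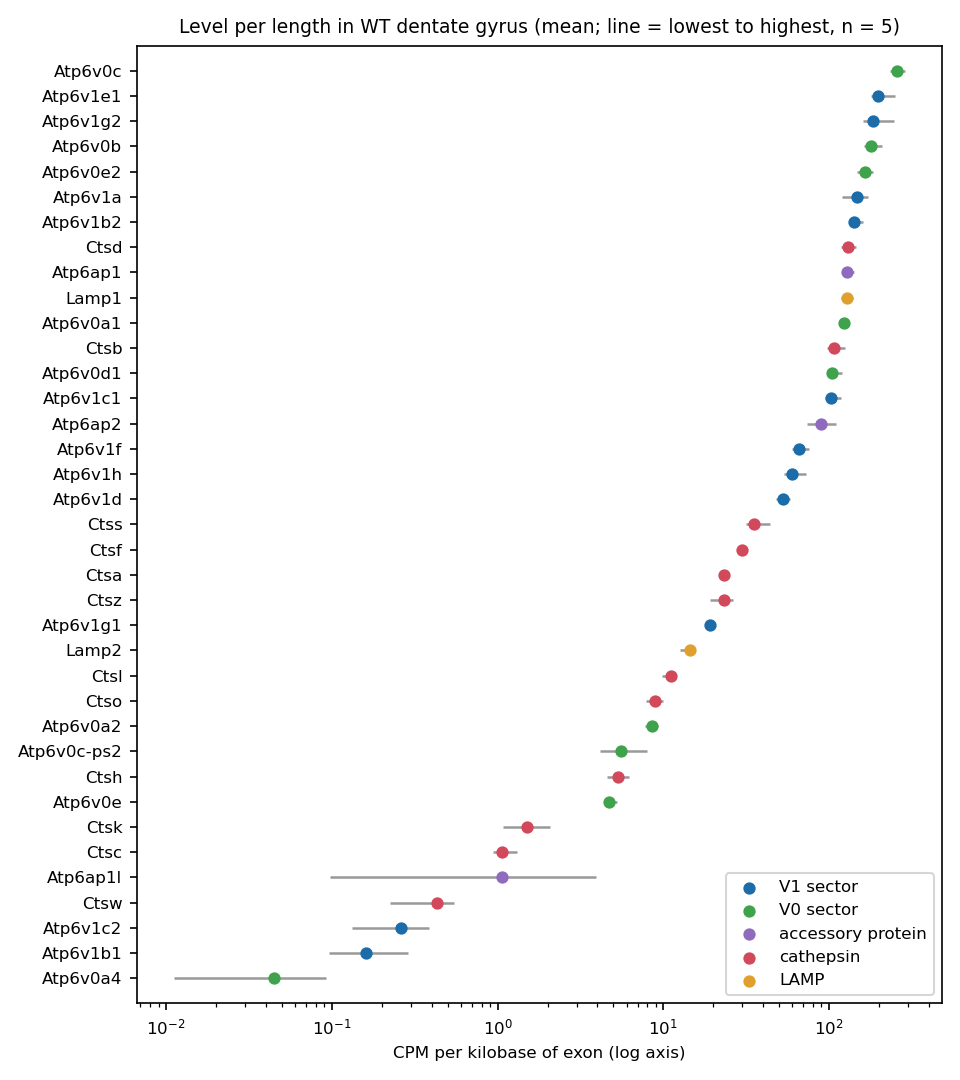
Level of the 37 members in WT dentate gyrus in CPM per kilobase of exon (log axis), as the mean of 5 libraries (point) with a line from the lowest to the highest library; colours mark V1, V0, accessory proteins, cathepsins and LAMPs. Atp6v0c leads at 257, Ctsd is the highest cathepsin at 130, and Atp6v0a4 is last at 0.0447.

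Where a subunit has several genes, 1 of them supplied most of the transcript in all groups. Shares here are per exon length and are means over all 24 libraries. Of the a subunit, which anchors the pump to a given membrane, Atp6v0a1 made up 89.5% ± 1.22 (SD, n = 24), Atp6v0a2 6.29% ± 0.539 and Tcirg1, the a3 gene, 4.21% ± 0.908. Atp6v0a4, the kidney-type a4 gene, made up 0.0295%. Atp6v0e2, a brain-rich form of the e subunit, made up 97.2% ± 0.335 against Atp6v0e. Atp6v1g2, the neuronal G subunit, made up 90.6% ± 1.04 against Atp6v1g1. Atp6v1b2 and Atp6v1c1 reached 99.9% and 99.7% of their pairs; their partners Atp6v1b1 and Atp6v1c2 are known mainly from kidney and other epithelia.

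The Atp6v0a1 share lay between 87.3% and 91.5% in every library. It was 90.1% ± 1.13 in WT (SD, n = 5), 89.9% ± 0.850 in APP/PS1 controls (n = 5), 88.0% ± 0.682 with BCI-838 (n = 4), 89.0% ± 1.11 with exercise (n = 5) and 90.1% ± 1.25 with both (n = 5). The BCI-838 libraries ran from 87.3% to 88.7% and the control libraries from 89.0% to 91.0%, so these groups did not overlap in this share. WT replicate 1 (88.4%), exercise replicates 2 and 4 (88.1% and 87.8%) and replicate 4 with both (87.9%) lay inside the BCI-838 range. The share also depends on Tcirg1, which is not a member, at 4.3% to 5.6% with BCI-838 and 3.2% to 4.7% in controls. Atp6v0a2 was at 6.5% to 7.4% and 5.7% to 6.3%. No test was run, and no rate of such separation is given for other shares or group pairs.

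Symbols that missed the minimum describe what the tissue lacks. The placental-type cathepsins Ctsj, Ctsm, Ctsq and Ctsr had 0 reads in all 24 libraries, and a count of 0 allows up to 3 counts, or 0.0464 to 0.0617 CPM depending on the library. Ctse and the osteoclast-type subunit Atp6v0d2 each had 28 reads in all, the neutrophil protease Ctsg had 13, Atp6v1e2 had 43 and Atp6v1g3 had 6. Just above the minimum stood Atp6v0a4, with 194 reads over all libraries.

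Library-to-library scatter within groups was measured for the members beside other genes. For the 28 members with at least 10 CPM the median SD within a group was 0.116 on the log2 scale. It was 0.154 for the 10406 tested genes at or above that level. Of the members, 17 were at or above 100 CPM, and no comparison with genes of matched level was made. The smallest scatter was in Ctsa, with a within-group SD of 0.0837, Atp6v0a1 with 0.0909 and Atp6ap1 with 0.0910. The widest was Atp6v1a with 0.221. Counting error alone gives an SD of 0.00743 for Atp6v1a and 0.0203 for Ctsa, so the scatter of both was larger than counting error.

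The APP/PS1 controls were first set against WT, which addresses the transgenes without treatment. No member passed between APP/PS1 controls and WT: 0 of 37 reached an adjusted p under 0.05 in edgeR's quasi-likelihood test (Benjamini-Hochberg over 18286 genes), where 0.0109% of all genes did. At an unadjusted p under 0.05 there were 0 members and 2.76% of all genes. DESeq2 and limma voom also called 0 members, where they called 0.0766% and 0.0109% of genes. On the log2 scale 18 members had a higher mean and 19 a lower one, beside 47.4% of all genes higher, with a median difference of -0.0049 for members and -0.0078 for all genes. For 31 of the 37 members the 95% interval of the difference lay within 1.5-fold in both directions, as it did for 11593 of the 18286 genes.

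Cathepsin D, which is often followed in plaque-forming mice, overlapped in level between the genotypes. Ctsd was at 280, 272, 309, 251 and 269 CPM in WT and at 326, 274, 303, 293 and 276 CPM in APP/PS1 controls. The ranges overlapped, and the log2 difference was 0.09 (SE 0.07, 95% interval -0.06 to 0.24, adjusted p = 1.00 in edgeR). Ctsb was at 538, 475, 595, 463 and 476 CPM in WT and at 578, 431, 563, 413 and 465 CPM in APP/PS1 controls. Its log2 difference was -0.06 (SE 0.10, 95% interval -0.25 to 0.14). Ctss, the cysteine protease of microglia and other antigen-presenting cells, was at 44.2, 47.1, 59.7, 45.9 and 43.0 CPM in WT and at 52.7, 48.0, 45.2, 47.5 and 41.5 CPM in controls, with a log2 difference of -0.03 (SE 0.10, 95% interval -0.24 to 0.18). The groups overlapped for all 3 proteases.

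Of the cathepsins, 9 of the 12 had a higher mean in APP/PS1 controls and 3 a lower one. Ctsa, which protects other lysosomal enzymes besides its own protease activity, had a log2 difference of 0.08 (SE 0.06, 95% interval -0.04 to 0.20). Ctsw, a protease of cytotoxic lymphocytes, had 0.49 (SE 0.30, 95% interval -0.12 to 1.10) at levels under 1 CPM. Ctsl was at 0.08 (SE 0.08) and Ctsz at 0.14 (SE 0.12). None passed the test. A set of 11 genes known from plaque-associated microglia, summed, ran from 137 to 166 CPM in WT and from 127 to 170 CPM in APP/PS1 controls. Axl, Csf1 and Lpl make up most of that sum. The mean log2 CPM of the list, which weights its genes equally, averaged 1.91 in WT and 2.12 in controls, with overlapping ranges (1.72 to 2.18 and 1.93 to 2.33). Group means in WT and controls were 0.248 and 0.489 CPM for Clec7a, 0.267 and 0.428 CPM for Cst7, and 0.260 and 0.333 CPM for Itgax. Of the 11 genes, 7 had a higher mean in controls and 0 had an unadjusted p under 0.05 in edgeR. Those with a lower mean in controls were Tyrobp (9.51 CPM in WT and 8.62 in controls), Axl (53.4 and 49.8), Lpl (26.1 and 23.7) and Ccl6 (1.29 and 1.11).

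The pump gave no pass either. Of the 23 V-ATPase members, 8 had a higher and 15 a lower mean in APP/PS1 controls. Atp6v0a1 was at 479, 511, 515, 500 and 479 CPM in WT and at 501, 465, 509, 459.9 and 517 CPM in controls, a log2 difference of -0.02 (SE 0.07). The 95% interval of that difference was -0.16 to 0.12, and the groups overlapped. Atp6ap2, the prorenin receptor and an assembly factor of the pump, had the smallest p among lower members of at least 1 CPM, with a log2 difference of -0.13 (SE 0.11, 95% interval -0.36 to 0.10). That value turned to 0.04 without the control libraries over 100 Ttr CPM and ranged from -0.24 to -0.04 with single libraries left out, the nearest to 0 without WT replicate 2 and the farthest without APP/PS1 control replicate 3. Atp6v1b1 was at -0.63 (SE 0.50) with levels under 1 CPM in both groups, and at -1.20 without those libraries. Lamp1 was at 0.03 (SE 0.09) and Lamp2 at -0.0049 (SE 0.07).

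**Figure D2:**
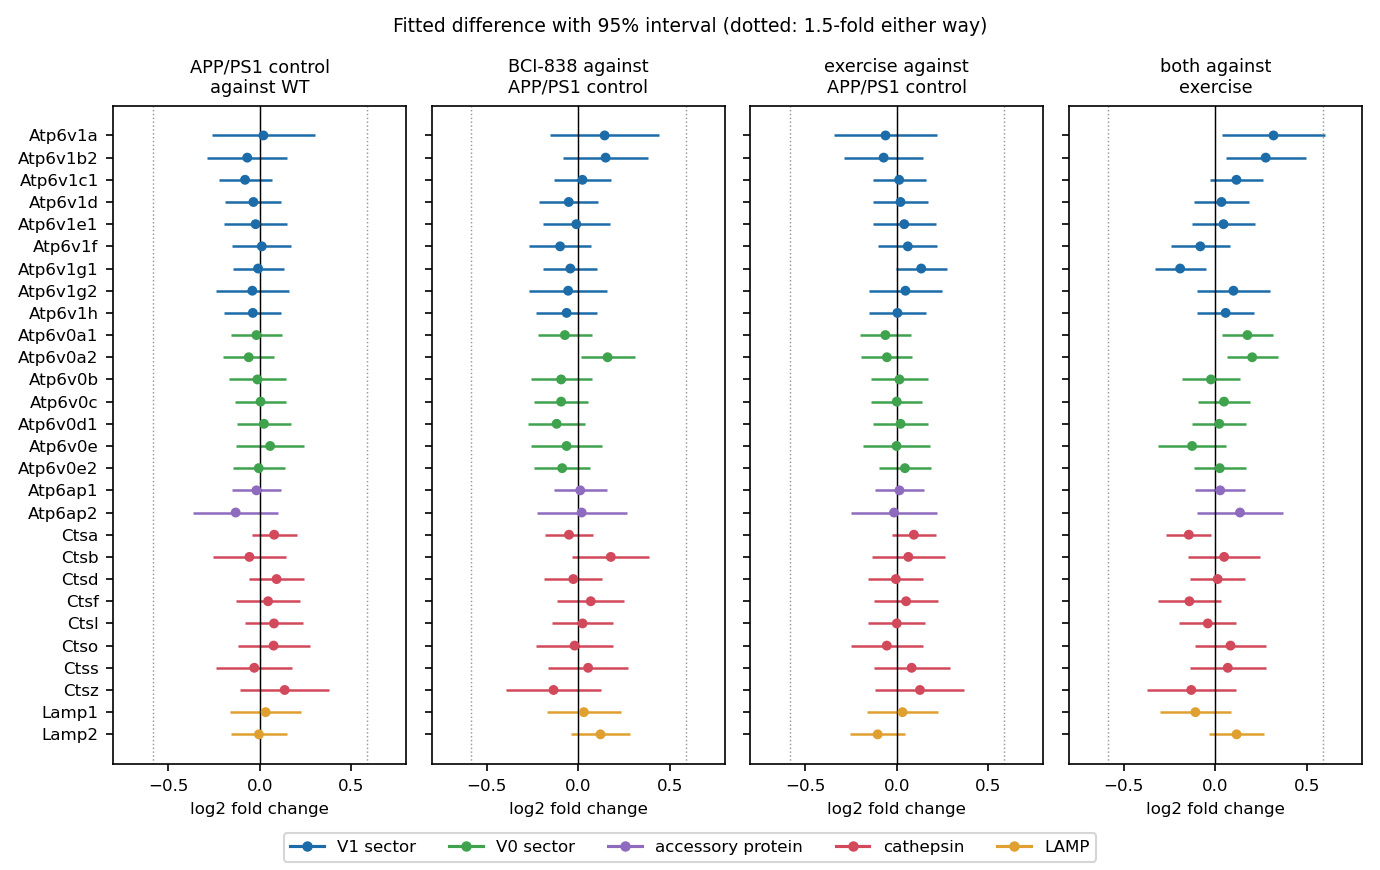
Fitted log2 fold change (x axis) with its 95% interval for the 28 members of at least 10 CPM in 4 comparisons, coloured by role, with dotted lines at 1.5-fold in each direction. Every interval in the first 3 panels lies inside the dotted lines, and 27 of 28 do for both treatments against exercise, where Atp6v1a reaches 0.60.

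The effect of BCI-838 without a wheel was read against the same APP/PS1 controls, which also serve the next comparisons. Again 0 of 37 members passed in edgeR, as did 0% of all genes. At an unadjusted p under 0.05 there were 2 members, 1 higher and 1 lower, against 10.2% of all genes (4.23% higher and 5.96% lower). DESeq2 called 0 members where it called 0.954% of genes, and limma voom called 0 where it called 2.64%. In 7 of the 23 V-ATPase members the mean was higher and in 16 lower, with a median log2 difference of -0.06, against 50.1% higher and a median of 0.00015 for all genes. For the 12 cathepsins 8 were higher and 4 lower, with a median of 0.05.

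The a2 subunit gene Atp6v0a2 (chromosome 5 from 124628576 to 124724455), whose product sits in the Golgi and in endosomes, had the smallest p of the higher members. It was at 44.8, 40.6, 47.7, 42.2 and 42.8 CPM in APP/PS1 controls and at 45.4, 48.9, 51.6 and 49.0 CPM with BCI-838. The groups overlapped in 1 control library, and the log2 difference was 0.16 (SE 0.07, 95% interval 0.01 to 0.31, adjusted p = 0.441 in edgeR). Without the 3 control libraries over 100 Ttr CPM it was 0.08. Ctsb was next, at 536, 556, 567 and 556 CPM with BCI-838, inside the control range of 413 to 578 CPM. Its log2 difference was 0.18 (SE 0.10, adjusted p = 0.574 in edgeR), 0.11 without APP/PS1 control replicate 4 and -0.04 without the libraries over 100 Ttr CPM.

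Among lower members, Atp6v1c2 was the only one whose groups did not overlap. This gene encodes an epithelial form of the C subunit, which holds V1 and V0 together. It was at 0.655, 0.759, 0.340, 0.942 and 0.668 CPM in APP/PS1 controls and at 0.212, 0.206, 0.219 and 0.290 CPM with BCI-838. The log2 difference was -1.53 (SE 0.53, 95% interval -2.62 to -0.44, adjusted p = 0.311 in edgeR), on a mean of 27.4 reads per library. Of all genes, 2.20% lay wholly below the controls in this comparison and 2.51% wholly above. Atp6v0d1, the d subunit at the rotor's base, was at 185, 157, 186, 153 and 175 CPM in controls and 159, 166, 153 and 153 CPM with BCI-838, a log2 difference of -0.12 (SE 0.08, adjusted p = 0.619 in edgeR). Its groups overlapped, and the difference was -0.23 without the libraries over 100 Ttr CPM. The choroid plexus list differed between these groups as given above (27.4 to 1805 CPM in controls, 32.4 to 42.5 CPM with BCI-838). Values without the libraries over 100 Ttr CPM therefore stand beside Atp6v0a2, Ctsb and Atp6v0d1, and they rest on 2 control libraries. No such value is given for Atp6v1c2. In those 2 control libraries, replicates 1 and 3, Atp6v1c2 was at 0.655 and 0.340 CPM. The control libraries over 100 Ttr CPM had 0.759, 0.942 and 0.668 CPM of it.

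Other marker lists also differed between these groups, and their part in the member values was not tested. The mean log2 CPM of 9 astrocyte markers was 8.26 to 8.44 with BCI-838 and 7.92 to 8.20 in controls, with no overlap, while their summed level overlapped (6199 to 6376 against 4762 to 6507 CPM). Of the 9, 8 had a higher mean with the drug. The 8 dorsal midbrain transcription factors, markers of another brain region, summed to 38.9 to 73.0 CPM with BCI-838 and 3.60 to 56.2 CPM in controls. The summed granule neuron markers lay inside the control range, at 733 to 1005 against 356 to 1498 CPM. Among them the group mean of Dsp was 25.1 with BCI-838 and 128 CPM in controls. Calb1 was at 39.1 and 102 CPM and Prox1 at 96.5 and 103 CPM. C1ql2, Plk5 and Stxbp6 went the other way, at 255, 99.5 and 245 CPM with BCI-838 and 236, 75.7 and 239 CPM in controls. The remaining markers of the list had lower means with the drug.

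The third question was what the wheel changes in APP/PS1 mice without drug. No member passed in edgeR, where 0.00547% of all genes did; 0 members and 5.44% of genes had an unadjusted p under 0.05. DESeq2 called 0 members and 0.334% of genes, and limma voom 0 members and 0% of genes. Higher means were seen in 20 members and lower ones in 17, beside 52.8% of all genes higher. The G subunit Atp6v1g1 had the smallest p, at 21.9, 21.3, 22.9, 21.4 and 20.1 CPM in controls and 26.1, 23.0, 21.9, 21.7 and 25.3 CPM in runners. The ranges overlapped, and the log2 difference was 0.13 (SE 0.07, 95% interval -0.01 to 0.27, adjusted p = 0.936 in edgeR), or 0.07 without the libraries over 100 Ttr CPM.

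Ctsa, with the next smallest p, was at 0.09 (SE 0.06), Lamp2 at -0.10 (SE 0.07) and the low Atp6v0a4 at -0.94 (SE 0.69) on the log2 scale, the last at -0.42 without those libraries. The intervals of Ctsd (-0.16 to 0.14), Atp6v0c (-0.14 to 0.14) and Atp6ap1 (-0.12 to 0.15) were among the narrow ones. For 31 of 37 members the interval lay within 1.5-fold either way, against 11513 of 18286 genes.

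The fourth question was what drug and wheel together change against the untreated APP/PS1 mice. In edgeR 0 of 37 members and 0% of all genes passed. At an unadjusted p under 0.05 there was 1 higher member and 0 lower, against 10.6% of genes (4.87% higher and 5.73% lower). DESeq2 called 0 members and 0.449% of genes, and limma voom 0 members and 0% of genes. Of the V-ATPase members 15 were higher and 8 lower, with a median log2 difference of 0.05, beside 48.6% of all genes higher. Of the cathepsins 6 were higher and 6 lower, with a median of 0.00061.

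Atp6v0a2 again had the smallest p, with 48.1, 45.3, 48.5, 47.0 and 52.6 CPM in mice with both treatments. The control range of 40.6 to 47.7 CPM overlapped this, and the log2 difference was 0.15 (SE 0.07, 95% interval 0.01 to 0.29, adjusted p = 0.450 in edgeR). Without the libraries over 100 Ttr CPM it was 0.03. The B subunit Atp6v1b2 was at 378, 372, 403, 337 and 408 CPM in controls and 492, 383, 514, 404 and 391 CPM with both. These ranges overlapped, and the log2 difference was 0.20 (SE 0.10, adjusted p = 0.504 in edgeR). The lower members with the smallest p were Atp6v0e, at -0.13 (SE 0.09, adjusted p = 0.621), and Atp6v1c2, at -0.64 (SE 0.47, adjusted p = 0.646), which turned to 0.07 without the libraries over 100 Ttr CPM. In the same comparison 13 of 14 microglia markers had a higher mean, with a median of 0.22, and their summed level was 312 to 364 CPM in controls and 329 to 467 CPM with both; its part in member values was not tested.

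The comparison of both treatments with exercise alone asked what the drug does in running mice. It gave the most members below an unadjusted p of 0.05, namely 6 (4 higher, 2 lower), and 17.6% of all genes were also below it (8.73% higher and 8.83% lower). None of the 37 passed adjustment in edgeR, nor did any other gene (0%). DESeq2 called 0 members and 2.67% of the 14031 genes to which it gave an adjusted p. Limma voom with quality weights called 2 members and 5.53% of genes. The members were Atp6v0a2 at 0.24 (SE 0.06, adjusted p = 0.0359) and Atp6v1g1 at -0.25 (SE 0.07, adjusted p = 0.0406). The share of members called by voom, 2 of 37, is near that of all genes.

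Both main a genes had a higher mean in runners with drug. Atp6v0a2 was at 38.8, 38.2, 45.2, 47.3 and 40.5 CPM with exercise and at 48.1, 45.3, 48.5, 47.0 and 52.6 CPM with both. One exercise library lay within the range of the other group, and the log2 difference was 0.20 (SE 0.07, 95% interval 0.06 to 0.34, adjusted p = 0.159 in edgeR). Atp6v0a1 (chromosome 11 from 101009452 to 101063719), the main a gene of neurons, was at 466, 434, 468, 465 and 514 CPM with exercise and at 549, 522, 582, 452 and 544 CPM with both. All but replicate 4 of the doubly treated mice lay above the exercise libraries, and the log2 difference was 0.17 (SE 0.07, 95% interval 0.04 to 0.31, adjusted p = 0.192 in edgeR).

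The ATP-splitting ring had the larger differences and the larger scatter. Atp6v1b2 (chromosome 8 from 69088646 to 69113711) was at 342, 273, 415, 387 and 388 CPM with exercise, against 492, 383, 514, 404 and 391 CPM with both. The log2 difference was 0.27 (SE 0.10, 95% interval 0.06 to 0.49, adjusted p = 0.192 in edgeR). Atp6v1a (chromosome 16 from 44085402 to 44139705) was at 562, 536, 757, 574 and 632 CPM with exercise and at 926, 680.2, 980.3, 639 and 588 CPM with both. Replicates 1 and 3 with both stood above every other library of the series, the rest of the group lay inside the exercise range, and the log2 difference was 0.32 (SE 0.14, 95% interval 0.04 to 0.60, adjusted p = 0.234 in edgeR). Those replicates, which were also the highest of their group for Atp6v1b2, had the lowest summed level of 9 oligodendrocyte markers of all 24 libraries, at 2271 and 4128 CPM. The other libraries ran from 4382 to 12751 CPM, the highest being replicate 4 with both, and the exercise group from 5546 to 8832 CPM. The part of this list in the values of Atp6v1a and Atp6v1b2 was not tested.

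Of the 14 members with a lower mean in this comparison, the minor G gene and cathepsin A were those below an unadjusted p of 0.05. Atp6v1g1 (chromosome 4 from 63544772 to 63550750) was at 26.1, 23.0, 21.9, 21.7 and 25.3 CPM with exercise and between 19.0 and 21.0 CPM in 4 libraries and at 23.1 CPM in the other with both. Replicate 4 of the doubly treated mice overlapped the exercise range, and the log2 difference was -0.19 (SE 0.07, 95% interval -0.33 to -0.05, adjusted p = 0.168 in edgeR). Ctsa (chromosome 2 from 164832873 to 164841032) was at 107, 95.7, 87.1, 92.2 and 99.7 CPM against 79.9, 86.1, 89.3, 92.7 and 87.9 CPM, with overlap and a log2 difference of -0.14 (SE 0.06, 95% interval -0.27 to -0.02, adjusted p = 0.213 in edgeR). Atp6v0c-ps2 lay wholly below, as 0.864% of all genes did, with a log2 difference of -0.35 (SE 0.18, adjusted p = 0.308 in edgeR). It is a processed pseudogene of Atp6v0c, and reads of the pair may have been split between them, so its value is uncertain.

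A library measure moved with this comparison. Of 77 cytosolic ribosomal protein genes, 76 had a lower mean with both than with exercise, 61 of them at an unadjusted p under 0.05, with a median log2 difference of -0.25. The median of the 37 members was 0.03 and of all genes -0.02, with 46.6% of genes above 0. Over all 24 libraries, as deviations from group means, Atp6v0a2 correlated with the mean level of the ribosomal genes at r = -0.690 (Spearman's rho -0.597, permutation p = 0.00426 and 0.0127, p of r adjusted over 18286 genes 0.0679, r without the 2 farthest libraries -0.565). The part of this measure in the members' differences was not tested.

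**Figure D3:**
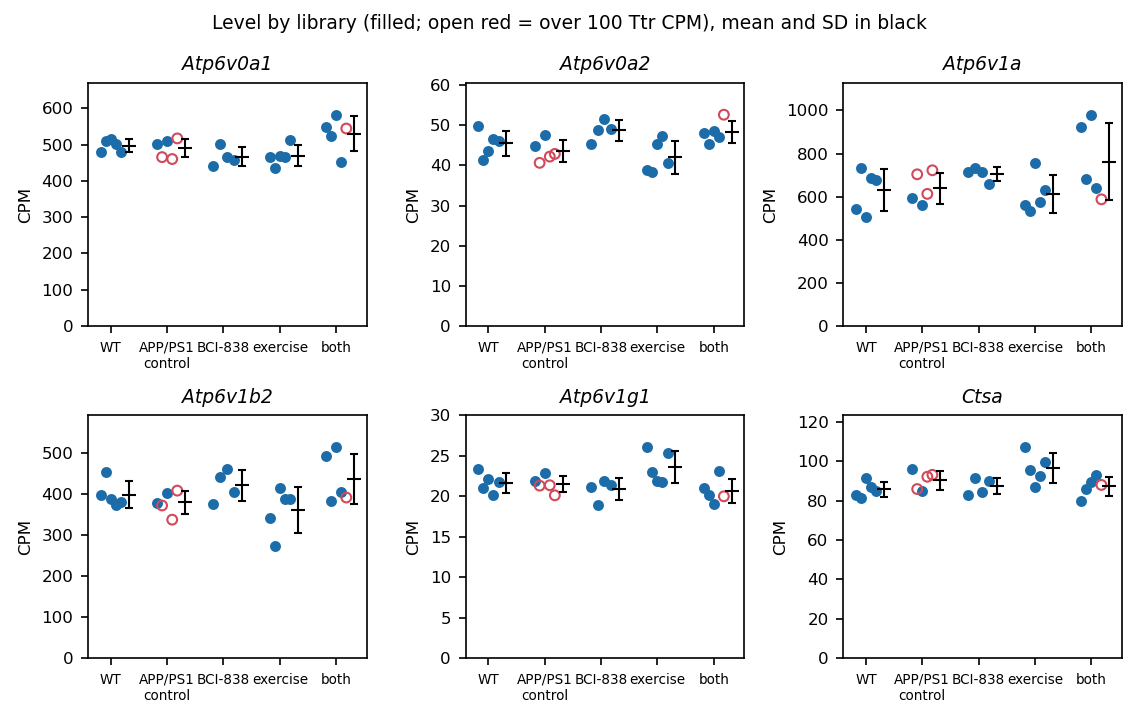
Level in CPM (y axis, from 0) of the 6 members below an unadjusted p of 0.05 in both against exercise, for each library of the 5 groups, with the group mean and SD in black; open red points are the 4 libraries over 100 Ttr CPM. Atp6v1a spreads most, from 588 to 980.3 CPM in the group with both, and Atp6v0a1 stays between 434 and 582 CPM over all libraries.

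The comparison of both treatments with BCI-838 alone asked what the wheel does in drugged mice. In edgeR 0 of 37 members and 0% of genes passed, and 3 members, all higher, had an unadjusted p under 0.05, against 14.3% of genes (7.48% higher). DESeq2 called 0 members and 1.53% of genes, and limma voom 0 members and 5.12% of genes. Of the 23 V-ATPase members 18 had a higher mean and 5 a lower one, with a median log2 difference of 0.11, against 48.7% of all genes higher and a median of -0.01. The cathepsins had 5 higher and 7 lower with a median of -0.01. This comparison shares the doubly treated libraries with the preceding ones.

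Atp6v0a1 had the smallest p. It was at 441, 502, 465 and 456 CPM with BCI-838, against 549, 522, 582, 452 and 544 CPM with both, where only replicate 4 fell in the lower group's range. The log2 difference was 0.19 (SE 0.07, 95% interval 0.04 to 0.33, adjusted p = 0.238 in edgeR). Atp6v0e2 was at 282, 287, 271 and 269 CPM with BCI-838 and at 323, 307, 333, 282 and 300.1 CPM with both, a log2 difference of 0.16 (SE 0.07, adjusted p = 0.334 in edgeR). Atp6v0d1 had a log2 difference of 0.16 (SE 0.08, adjusted p = 0.342 in edgeR).

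For 2 members the groups did not overlap, as for 4.30% of all genes in the same direction. Atp6v1g2 was at 328, 332, 340.1 and 296 CPM with BCI-838 and at 374, 396, 358, 361 and 373 CPM with both, a log2 difference of 0.20 (SE 0.10, adjusted p = 0.378 in edgeR). The C subunit Atp6v1c1 was at 205, 208, 212 and 195 CPM and at 234, 215, 213, 228 and 214 CPM, a log2 difference of 0.11 (SE 0.07, adjusted p = 0.553 in edgeR). Of the 14 members with a lower mean with both, the smallest p belonged to Ctsf, at -0.16 (SE 0.09, adjusted p = 0.423), and Lamp2, at -0.11 (SE 0.08, adjusted p = 0.553). In this comparison 14 of 14 microglia markers had a higher mean, 5 of them at an unadjusted p under 0.05. The dorsal midbrain factors summed to 1.47 to 25.7 CPM with both and 38.9 to 73.0 CPM with BCI-838, with no overlap and all 8 lower. The astrocyte markers had a mean log2 CPM of 8.08 to 8.24 with both and 8.26 to 8.44 with BCI-838, again without overlap. The part of these lists in member values was not tested.

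The interaction asked whether the effect of the drug differs between running and sedentary mice. In edgeR 0 of 37 members and 0% of genes passed. DESeq2 called 0 members and 0.421% of genes, and limma voom 0 members and 0% of genes. In edgeR 1 member had an unadjusted p under 0.05, against 9.60% of genes. That member was Atp6v0a1, with an interaction of 0.25 on the log2 scale (SE 0.10, 95% interval 0.05 to 0.45, adjusted p = 0.440 in edgeR). Atp6v1c2 was at 1.08 (SE 0.70), Ctsf at -0.21 (SE 0.12) and Atp6v1g1 at -0.15 (SE 0.10). Without the libraries over 100 Ttr CPM, Ctsf was at -0.07 and Atp6v1g1 at -0.08. The interaction was above 0 for 19 of 23 V-ATPase members, with a median of 0.11, and for 4 of 12 cathepsins, with a median of -0.06. Over all genes 47.5% were above 0, with a median of -0.01.

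How far the members varied together was described from deviations from the group means over the 24 libraries, for members of at least 10 CPM. All 28 pairs of cathepsins had a positive correlation, with a median r of 0.509 and a range of 0.0694 to 0.720. V-ATPase pairs were more mixed: 113 of 153 were positive, with a median of 0.353 and a range of -0.518 to 0.887. The highest pairs of all members were Atp6v1g2 with Atp6v1e1 (0.887), both stator subunits of V1, then Ctsb with Atp6ap1 (0.863) and Atp6v1c1 with Atp6ap1 (0.846). The lowest was Atp6v0b with Lamp2 (-0.718). All these values share libraries, depth and tissue makeup. No such counts are given for pairs of other genes, so these numbers have no background to stand beside.

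For Lamp1 and Ctsd the most similar genes of all those tested were listed by the same measure. Lamp1 was closest to Lzts2 (r = 0.952), Cdc42ep2 (0.940) and Kazn (0.939). Ctsd was closest to BC005624 (0.838), Txndc15 (0.837) and Cyhr1 (0.830). No member stood among these.

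Ctss followed the microglia markers. Each of the 37 members was compared with the mean log2 CPM of 3 lists, and p-values were adjusted over 18286 genes for each list. Ctss correlated with the 14 microglia markers at r = 0.849 (Spearman's rho 0.798, permutation p = 4e-05 and 9e-05, adjusted p of r = 0.0286), and at r = 0.763 without WT replicate 3 and replicate 2 of the group with both. It was the only member under an adjusted p of 0.05 for that list, as were 0.968% of all genes. Atp6v0d1 did not pass, at r = 0.691 (rho 0.655, permutation p = 0.00065 and 0.00183, adjusted p of r = 0.0519, r = 0.628 without the same libraries). Nor did Ctsd, at r = 0.619 (rho 0.607, permutation p = 0.00663 and 0.00844, adjusted p of r = 0.110, r = 0.478 without the same libraries). The permutations were 100000 draws within groups.

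The granule neuron markers were compared in the same way. The list had 8 members under an adjusted p of 0.05, 7 negative and 1 positive, where 15.9% of all genes passed. How those genes divide by sign is not given. The libraries lowest for these markers, WT replicate 3 and APP/PS1 control replicate 3, had 8330 and 9958 CPM of the summed oligodendrocyte markers. The part of the oligodendrocyte list in these correlations was not tested. Atp6v1h, the H subunit that couples V1 to V0, was at r = -0.807 (rho -0.711, permutation p = 0.00016 and 0.00083, adjusted p of r = 0.00425, r = -0.674 without WT replicate 3 and APP/PS1 control replicate 3). Ctsb was at r = -0.755 (rho -0.790, permutation p = 0.00014 and 0.00016, adjusted p of r = 0.00392, r = -0.662 without the same libraries). The others were Atp6ap1l (-0.860), Atp6ap1 (-0.685), Lamp1 (-0.638), Ctsz (-0.631) and Ctsd (-0.623), with rho from -0.740 to -0.619, permutation p of r from 0.00029 to 0.00352, adjusted p from 0.00604 to 0.0290, and r from -0.684 to -0.541 without the same libraries. The positive one was the catalytic subunit Atp6v1a, at r = 0.641 (rho 0.683, permutation p = 0.00202 and 0.00247, adjusted p of r = 0.0201, r = 0.593 without the same libraries). Against ribosomal protein genes, 2 members passed, as did 4.48% of all genes. Ctss was at r = 0.662 (rho 0.680, permutation p = 0.00146 and 0.00163, adjusted p of r = 0.0402, r = 0.530 without the 2 farthest libraries), and Atp6v1f at r = 0.731 (rho 0.723, permutation p = 0.00183 and 0.00148, adjusted p of r = 0.0451, r = 0.775 without them).

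**Figure D4:**
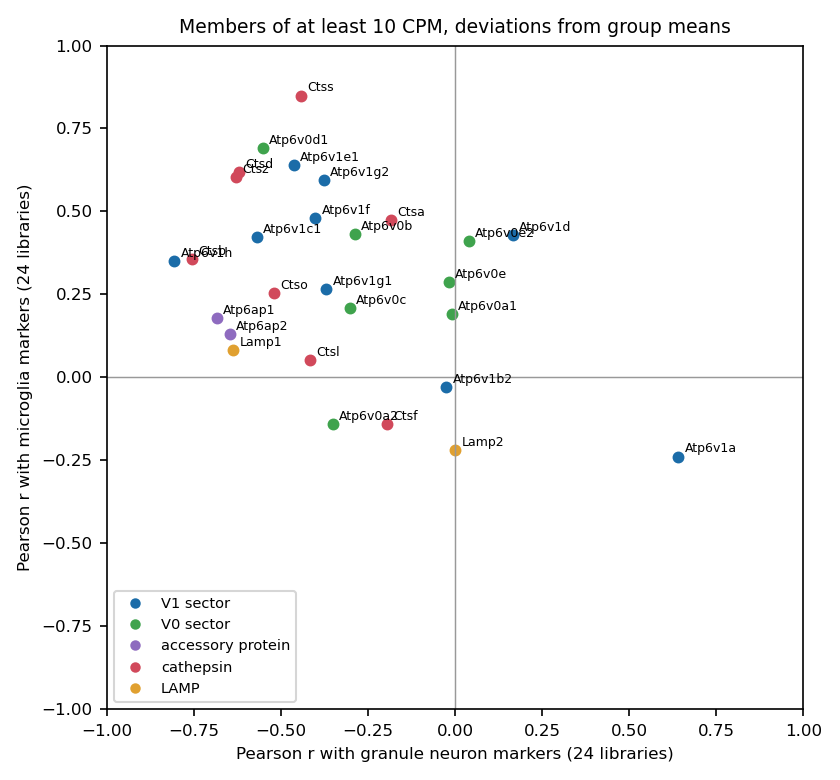
Pearson r of the 28 members of at least 10 CPM with the granule neuron markers (x axis) and the microglia markers (y axis), over 24 libraries after removing group means; colours mark the role. Ctss is highest on the y axis at 0.849, Atp6v1h and Ctsb are far left at -0.807 and -0.755, and Atp6v1a is far right at 0.641.

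**Figure D5:**
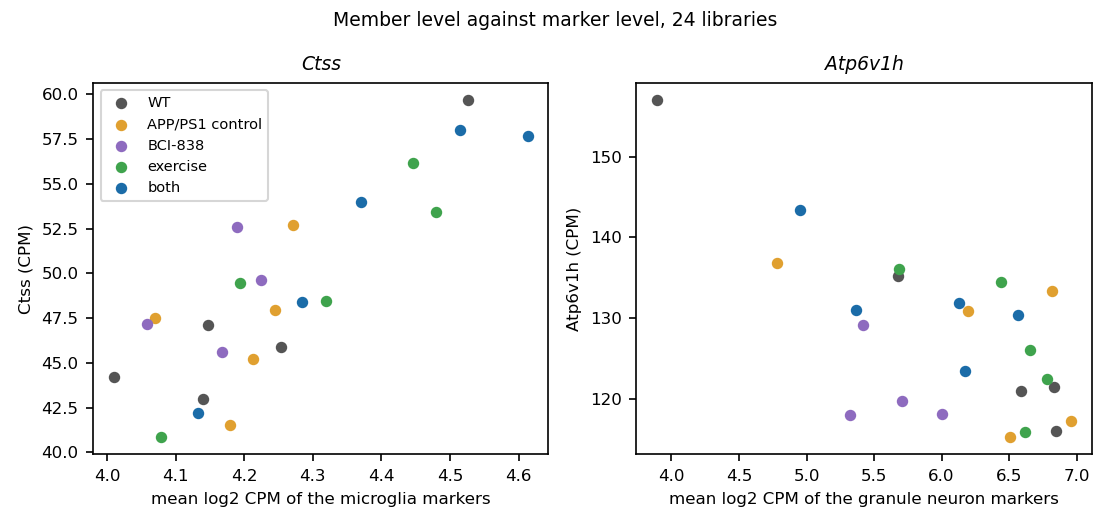
Level in CPM of Ctss against the mean log2 CPM of the microglia markers (left) and of Atp6v1h against that of the granule neuron markers (right); each point is 1 of 24 libraries, coloured by group. The WT library at 59.7 CPM of Ctss is WT replicate 3, which is also at the low end of the granule neuron markers.

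Other genes of the lysosome were followed in 5 lists: 12 tested assembly and regulation factors of the V-ATPase, 32 other hydrolases and activators, 19 membrane and trafficking proteins, 12 genes of lysosomal gene control and 4 inhibitors of cysteine proteases. In edgeR none of these 79 genes passed in any of the 7 comparisons, with 0 (APP/PS1 control against WT) to 15 (both against exercise) at an unadjusted p under 0.05. DESeq2 called 3 in both against exercise and none elsewhere. Limma voom called 8 there, 2 for BCI-838 against control (Naglu and Ncoa7) and 1 for both against BCI-838 (Lipa). Of the genes given an adjusted p, DESeq2 called 2.67% in both against exercise, and voom called 5.53%, 2.64% and 5.12% in those 3 comparisons. For both against exercise there were 3 higher and 0 lower assembly factors, 1 and 2 hydrolases, 4 and 2 membrane proteins, 2 and 0 control genes and 0 and 1 inhibitors, beside the 17.6% of all genes.

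In that comparison, the names that follow were chosen after their values were seen. DESeq2 called Cstb, Wdr7 and Tmem106b. Cstb, the cytosolic inhibitor of cysteine cathepsins, was at -0.39 (SE 0.08, adjusted p = 0.0983 in edgeR). The V-ATPase assembly factors Wdr7 and Dmxl2, which form a complex that loads V1 onto V0 on synaptic vesicles, were at 0.40 (SE 0.10, adjusted p = 0.131) and 0.45 (SE 0.14, adjusted p = 0.148). The lysosomal membrane protein Cd63 was at -0.40 (SE 0.13, adjusted p = 0.148) and Tmem106b at 0.32 (SE 0.10, adjusted p = 0.140). Tfeb, the regulator of the CACGTG-type motif, was at -0.30 (SE 0.16, adjusted p = 0.319) and, for APP/PS1 controls against WT, at 0.04 (SE 0.16).

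Exon overlap limits a few of the values above. In the GRCm38 annotation, 12 members share exon bases with another gene, most of them on the opposite strand, and 5 share over 10% of their length. Ctsd shares 31.5% of its exon bases with Gm49369 on the same strand. On the opposite strand, Ctsl shares 28.2% with Gm47123 and Ctsb 16.3% with Fdft1. Ctsa shares 13.5% with Pltp and Atp6v0a2 12.4% with 4930404A12Rik, also on the opposite strand. The sources used here do not say how such reads were assigned.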

How the data were processed

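The deposited table holds raw read counts for each gene and library. STAR, HTSeq and DESeq are the tools named, and mm10 the build, per the submitters' processing notes. The sources used here give no versions, annotation, strand use or read layout. A second deposited table of normalised signal was not used. Per the labels, RNA came from dissected dentate gyrus, and the replicates are separate mice. No pair of the 276 library pairs agreed within sampling noise (lowest chi-square per gene 18.5).

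Counts were analysed in R 4.3.3. The filterByExpr function of edgeR 4.0.16 (minimum count 10, minimum total 15) kept 18286 genes, among them all 37 members, and TMM factors scaled them. A mean per group was fitted over all 24 libraries, and quasi-likelihood F tests with robust dispersions gave p-values, adjusted by Benjamini-Hochberg over all genes tested. A gene was called at an adjusted p under 0.05. Shares called by DESeq2 are over the genes to which it gave an adjusted p. These numbered 14031 for both against exercise, 16863 for both against BCI-838 and up to 18282 elsewhere. SE is the log2 fold change over the square root of F. The script was tested on simulated data. The 7 comparisons share libraries. Alternatives were DESeq size factors, other filters, DESeq2 1.42.0, limma 3.58.1 voom with quality weights, a replicate block, a fit of only the groups compared, and each library left out in turn. Leaving out the libraries over 100 Ttr CPM and another length measure were added after seeing the data.

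Lengths are the union of exons in GENCODE M21 for GRCm38, matched for 37 of 37 members. Correlations used Python 3.11.15 and scipy 1.17.1, on log2 CPM with a prior count of 2. They were two-sided, and 1e-05 is the smallest p they can give. Members named in a comparison were any called, the 2 with the smallest p in each direction, and 14 always given. Other members are described by level or were singled out after their values were seen. The members and lists were chosen with earlier results of these data known.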

Additional observations from a re-analysis of the deposited data

Results flagged for a closer look

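In 8 of 120 sets of 4 or 5 libraries, each set being 1 named member in 1 group, a single library stood far from the rest by Dixon's test. Chance flags about 1 set in 20. WT replicate 3 was the highest of its group for Atp6v0d1, at 195 CPM against 164 CPM for the next library, and for Ctss, at 59.7 against 47.1 CPM. Replicate 4 of the mice with both treatments was the highest for Atp6ap2, at 239 against 199 CPM, and for Ctsb, at 595 against 527 CPM. APP/PS1 control replicate 3 was the highest for Atp6ap2, at 245 against 185 CPM. WT replicate 4 was the highest for Atp6v0e, at 19.6 against 17.4 CPM. In the BCI-838 group, replicate 4 was the highest for Atp6v1c2, at 0.290 against 0.219 CPM, and replicate 1 the lowest for Atp6v0a4, at 0.0353 against 0.135 CPM.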

How the results depend on the processing

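The number of members called was 0 in all 7 comparisons under every alternative except voom with quality weights, which called 2 in both against exercise (Atp6v0a2 and Atp6v1g1); the cause was not tested. Leaving out each library in turn gave 0 calls throughout, while members at an unadjusted p under 0.05 ranged from 4 to 8 for both against exercise, 1 to 5 for both against BCI-838 and 0 to 3 in the others. With the replicate number as a block, 0 members were called and the counts at an unadjusted p under 0.05 were 0 to 6. For both against BCI-838 it was 1, where the fit without the block had 3. The shares of all genes below that p in these refits are not given. Same-numbered libraries of different groups did not deviate together (mean r per number -0.059 to 0.059), so the numbers do not pair the mice. The best correlated library of another group carried the same number for 6 of 24 libraries. Of the named members, the log2 difference changed sign in 3 cases, all without the libraries over 100 Ttr CPM, where 2 control libraries remain: Atp6ap2 for APP/PS1 control against WT (0.038), Ctsb for BCI-838 (-0.042) and Atp6v1c2 for both against control (0.067). The filter of 1 CPM in 4 libraries tested 33 members. With the length of the longest transcript in place of the exon union, the share of Lamp1 over Lamp1 and Lamp2 was 86.6% in place of 90.0% and that of Atp6v1g2 92.2% in place of 90.6%. The 95% intervals of Atp6v0a4, Atp6v1b1 and Atp6v1c2 reach past 1.5-fold in each comparison. Counting error gives them an SD of 0.507, 0.290 and 0.276 on the log2 scale, against 0.897, 0.778 and 0.778 within groups, so depth accounts for only part of their scatter. Over all genes the calls differed by tool: edgeR called 0 to 2 genes per comparison, DESeq2 14 to 374 and voom 0 to 1012.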

Other observations

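Atp6ap1l, a gene related to Atp6ap1, had the highest coefficient of variation of all members, 101% over the 24 libraries. It was highest in WT replicate 3, at 4.66 CPM, and in APP/PS1 control replicate 3, at 3.21 CPM, which were also the lowest for the granule neuron markers. The remaining libraries ran from 0.116 to 1.49 CPM.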
